A study of Homo sapiens with 96 samples.

Results

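TXNIP and ARRDC1 to ARRDC4 encode 5 alpha-arrestins, a family of adaptor proteins, and their mRNAs are described here in A375 cells, an established human melanoma line that depends on a mutated BRAF kinase. The 5 genes were taken by their symbols from a table of raw read counts with 44659 gene entries, in which each of the 5 had 1 entry. The table holds 96 libraries in 32 groups of 3. All of the cells were from 1 line. They were first kept for 18 h with DMSO or with MAPKi, the pair of a BRAF inhibitor (vemurafenib) and a MEK inhibitor (cobimetinib), each at 500 nM. They were then given DMSO only (vehicle), 100 µg/ml cycloheximide, which stops translating ribosomes, 25 µM triptolide, which blocks transcription (the labels write cycloheximid and tryptolide), or both, with cycloheximide added 5 min ahead of triptolide. Harvest was at 0, 1, 3 and 5 h, and the plates of each harvest time were a batch of their own, so time and batch cannot be told apart.

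Alpha-arrestins have the fold of the visual and beta-arrestins and, in most members, PPxY motifs that bind the WW domains of NEDD4-family ubiquitin ligases, which lets them bring ligases to membrane proteins. TXNIP also binds and inhibits thioredoxin, and it lowers glucose uptake by promoting the endocytosis of the glucose transporters GLUT1 and GLUT4. Its gene is a classical target of the glucose-sensing factors MondoA (MLXIP) and ChREBP (MLXIPL), which act with MLX at carbohydrate response elements, pairs of E-box-like units set 5 bases apart. ARRDC4 is a further target of MondoA and, like TXNIP, limits glucose uptake. ARRDC3 takes part in the ubiquitination and trafficking of membrane proteins such as integrin beta4. ARRDC1 recruits TSG101 and VPS4 to bud vesicles from the plasma membrane. ARRDC2 is the least described of the 5.

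On GRCh38, TXNIP lies at chr1:145992435-145996579 on the minus strand, ARRDC1 at chr9:137605685-137615360 on the plus strand, ARRDC2 at chr19:18001132-18014102 on the plus strand, ARRDC3 at chr5:91368631-91383317 on the minus strand and ARRDC4 at chr15:97960703-97973833 on the plus strand. In the annotation, exons of ARRDC1 share 35 bases with the antisense gene ARRDC1-AS1 and 183 bases with a long noncoding RNA of the same strand, those of ARRDC3 share 145 bases with ARRDC3-AS1, and those of ARRDC2 share 442 bases with an unconfirmed transcript of the opposite strand. Whether reads were counted by strand is not given in the sources used here, so reads of these genes and of such neighbours may not be separable. Exons of TXNIP and ARRDC4 overlapped no other gene.

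The promoters of TXNIP, ARRDC3 and ARRDC4 are shown because these 3 mRNAs had the largest responses to cycloheximide below. Each run holds the 250 bases before the start of the gene, 5′ to 3′ on the gene's strand (RefSeq, GRCh38.p14). They were searched, together with the following 50 bases, on both strands for the E-box CACGTG, for pairs of E-box-like units (CACGNG or CNCGTG, 5 bases apart, which can overlap an E-box), and for the forkhead core TGTTTAC, the letters that FOXO factors are known to bind. Capitals mark the matches.
TXNIP, chr1:145996580-145996829, minus strand: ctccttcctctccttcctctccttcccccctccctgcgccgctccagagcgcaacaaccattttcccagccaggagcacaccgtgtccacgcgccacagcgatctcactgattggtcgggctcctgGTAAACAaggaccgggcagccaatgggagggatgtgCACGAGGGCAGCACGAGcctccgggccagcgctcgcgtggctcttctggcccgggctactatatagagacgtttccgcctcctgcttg
ARRDC4, chr15:97960453-97960702, plus strand: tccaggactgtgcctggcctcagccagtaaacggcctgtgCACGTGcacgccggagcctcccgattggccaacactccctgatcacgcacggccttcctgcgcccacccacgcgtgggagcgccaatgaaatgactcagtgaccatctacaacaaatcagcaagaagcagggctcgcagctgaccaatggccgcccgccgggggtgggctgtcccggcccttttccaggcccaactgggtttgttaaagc
ARRDC3, chr5:91383318-91383567, minus strand: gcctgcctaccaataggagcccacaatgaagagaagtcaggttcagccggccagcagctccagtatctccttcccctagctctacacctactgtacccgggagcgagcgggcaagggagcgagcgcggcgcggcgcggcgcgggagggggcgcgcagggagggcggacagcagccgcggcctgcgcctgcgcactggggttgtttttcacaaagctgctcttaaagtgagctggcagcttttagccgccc

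In the TXNIP promoter, the paired units lay at bases -88 to -72 before the gene's start and the forkhead core, on the opposite strand, at -124 to -118. Paired units were present in 27 of the 35116 promoter windows of this length, or 0.0769%, and the forkhead core in 1202, or 3.42%. The ARRDC4 promoter held 1 E-box at -210 to -205, as did 2548 windows, or 7.26%. The windows of ARRDC1, ARRDC2 and ARRDC3 held none of the 3 motifs, which says only that these letters are not in this stretch.

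The libraries held 2381351 to 12520154 counts each (median 7143396). All 5 genes passed the filter on low counts, as did 14948 entries in all. TXNIP had 29 to 48970 counts per library with a median of 761.5, ARRDC1 27 to 184, ARRDC2 7 to 223, ARRDC3 3 to 717 and ARRDC4 0 to 348 with a median of 17, so that values of ARRDC4 are the least precise. The labels were checked with marker genes. Of 5 feedback targets of the MAPK pathway (DUSP6, SPRY2, SPRY4, ETV4, ETV5), all 5 were lower in MAPKi at 0 h (DUSP6 log2 change -8.29 ± 0.38, SE). Summed over 8 melanocyte lineage genes, the vehicle libraries had CPM values (counts scaled to a common library size) of 620 to 1008 in DMSO and 2091 to 3706 in MAPKi, against 2.92 to 6.27 and 2.88 to 9.18 for 13 markers of other cell types. Of those 13, KRT5, CD3E and CDH5 had no count in any library. LUM had counts in all 96 (at most 100), COL1A1 in 78, KRT14 in 63 and PTPRC in 59. Of 4 of them tested, 1 was called higher in MAPKi at 0 h. Of 7 lineage genes tested there, 5 were called higher and 1 lower, where 21.9% of all genes were called higher. DCT had up to 29344 counts in a library, but TYRP1 at most 44, MLANA 17 and TYR 9. The part of the rise in melanocyte genes in the results below was not tested. At 0 h, none of the 5 genes differed between an inhibitor arm and vehicle, and 0% of genes were called in the triptolide, cycloheximide and combined arms by edgeR's quasi-likelihood test. Of these genes, 870, 441 and 660 had an unadjusted p under the threshold. DESeq2 called 1, 1 and 0, and edgeR with no filter on low counts called 92, 3 and 66, none of them a member.

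The first comparison asked whether 18 h of MAPKi had changed these mRNAs before any other inhibitor was given. TXNIP and ARRDC3 were higher in MAPKi-treated cells as compared to DMSO, by 2.61-fold and 2.88-fold, and the other 3 members did not pass the test. TXNIP stood at 70.3, 97.6 and 95.4 CPM in the 3 DMSO libraries and at 231, 222 and 236 CPM in the 3 MAPKi libraries. The groups did not overlap, and the log2 change was 1.38 ± 0.19 (SE, adjusted p = 1.64e-09, edgeR, Benjamini-Hochberg over all genes tested). ARRDC3 stood at 5.60, 6.58 and 4.55 CPM in DMSO and at 18.0, 14.5 and 15.2 CPM in MAPKi. Again every MAPKi library lay above every DMSO library, with a log2 change of 1.53 ± 0.24 (adjusted p = 9.73e-08). Among all genes tested, 21.9% were called higher in this comparison, beside 2 of the 5 members.

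ARRDC1 was at 8.41 ± 0.23 CPM in DMSO and 11.4 ± 1.46 CPM in MAPKi (SD, n = 3 each), a log2 change of 0.43 ± 0.22 (adjusted p = 0.109). ARRDC2 and ARRDC4 had log2 changes of 0.06 (adjusted p = 0.889) and 0.80 (adjusted p = 0.227). Averaged over the 4 vehicle times in place of 0 h, all 5 members were called higher in MAPKi, with log2 changes of 0.47 for ARRDC1, 0.34 for ARRDC2 and 0.69 for ARRDC4, whereas that of TXNIP was smaller, at 0.70. With this average, 10311 of the 14948 genes were called in either direction, as against 6865 at 0 h. The smaller average of TXNIP went with its course in the vehicle arm. In MAPKi, the 3 vehicle libraries at 1 h stood at 117, 116 and 161 CPM, all below the 3 libraries at 0 h, and the means at 3 and 5 h were 252 ± 29.5 and 264 ± 27.7 CPM. At 1 h the DMSO and MAPKi libraries overlapped, and the ratio of their means was 1.07, as against 2.62 at 0 h, 1.62 at 3 h and 1.54 at 5 h. The drop at 1 h was seen after the values were known and was not tested by itself.

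The vehicle arm also gives the background of time and handling. In DMSO, TXNIP rose between 0 and 5 h, from a mean of 87.8 to 171 CPM, with 144, 166 and 204 CPM in the 3 libraries at 5 h (log2 change 0.96 ± 0.19, adjusted p = 9.14e-04). It was the single member called there, where 0.582% of genes were called higher. In MAPKi, no member was called between 0 and 5 h (3.34% of genes were). ARRDC3 came nearest, with a log2 change of -0.69 (adjusted p = 0.0652), while TXNIP changed by 0.20 (adjusted p = 0.678). The change of TXNIP over time in MAPKi minus that in DMSO was -0.76 on the log2 scale (adjusted p = 0.167), and 0.736% of genes were called for such a difference.

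The second comparison asked how these mRNAs respond when translation is stopped while transcription goes on. Cycloheximide raised TXNIP, ARRDC2, ARRDC3 and ARRDC4 over 3 and 5 h in both pretreatments, and ARRDC1 did not pass the test in either. TXNIP had the largest fold of the 5, 18.5-fold in DMSO and 6.30-fold in MAPKi. In the DMSO libraries with cycloheximide, TXNIP stood at 213, 278 and 217 CPM at 1 h, at 2263, 2323 and 2503 CPM at 3 h, and at 3509, 3590 and 4584 CPM at 5 h. At 5 h that was 22.7 times the vehicle mean of the same time, and in 1 library TXNIP took 0.423% of all counts. In the MAPKi libraries with cycloheximide it stood at 458, 423 and 385 CPM at 1 h, at 1078, 1352 and 1272 CPM at 3 h, and at 2044, 2344 and 2051 CPM at 5 h. At 5 h these were 8.12 times the vehicle mean. In both pretreatments, no library with cycloheximide overlapped with vehicle at 1, 3 or 5 h.

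**Figure D1:**
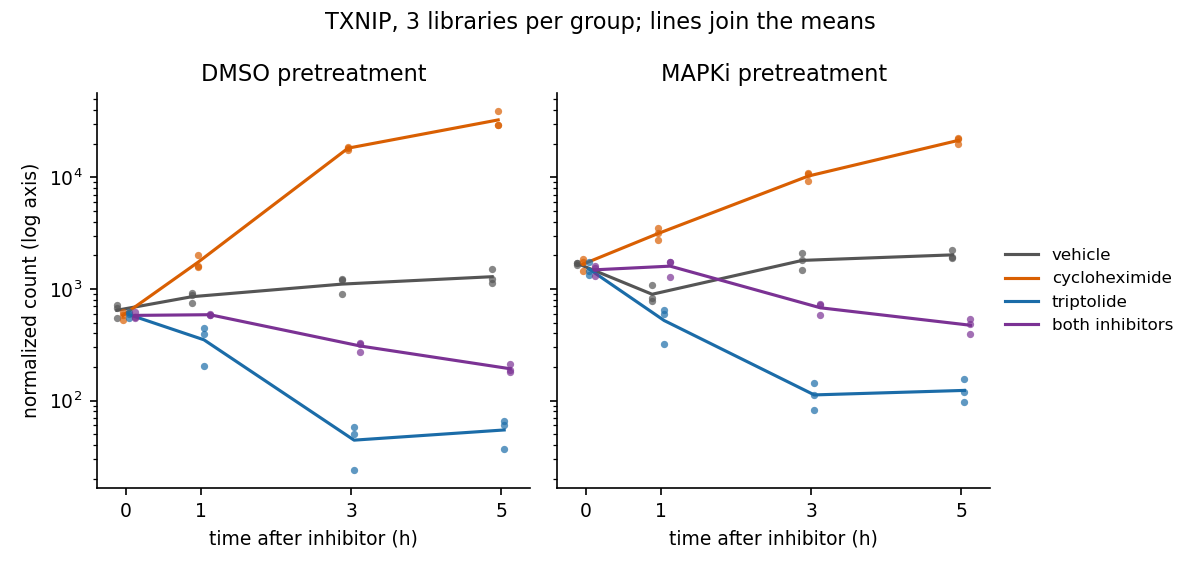
Normalized TXNIP counts (log axis, scaled over stable genes) against time after the inhibitor, with DMSO on the left and MAPKi on the right. Points are libraries and lines join the means of 3; from 645 in DMSO at 0 h the mean reached 32634 with cycloheximide at 5 h and 44.3 with triptolide at 3 h.

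The TXNIP response was already present at 1 h, when few genes had moved. In DMSO its log2 change against vehicle at 1 h was 0.94 ± 0.18 (adjusted p = 0.00347), a 1.92-fold rise, in a comparison where 0.0803% of genes (12 of 14948) were called higher. This call was lost when the libraries numbered 1 were left out (adjusted p = 0.198) and when those numbered 2 were (adjusted p = 0.463). In MAPKi the change at 1 h was 1.68 ± 0.18 (adjusted p = 1.21e-09), a 3.20-fold rise, with 0.0602% of genes called higher (9 of 14948). That fold was taken against the vehicle libraries at 1 h, which were low for TXNIP, as described above. No other member was called at 1 h. The difference between the pretreatments at 1 h was 0.74 on the log2 scale (adjusted p = 0.543, with 0.0201% of genes called).

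ARRDC3 followed TXNIP with lower counts. In DMSO it reached 73.6, 76.6 and 67.1 CPM with cycloheximide at 5 h, against 6.76, 3.82 and 3.36 CPM with vehicle. In MAPKi it reached 56.8, 52.3 and 54.5 CPM, against 11.6, 8.70 and 9.38 CPM. The groups lay far apart in both pretreatments. Over 3 and 5 h the log2 change was 3.84 ± 0.18 in DMSO (14.3-fold, adjusted p = 8.32e-32) and 2.28 ± 0.15 in MAPKi (4.86-fold, adjusted p = 2.12e-21).

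ARRDC4, the other glucose-regulated member, reached 25.7, 26.8 and 32.6 CPM at 5 h with cycloheximide in DMSO, where vehicle had 1.13, 2.73 and 2.55 CPM. In MAPKi it reached 10.9, 15.3 and 10.8 CPM, where vehicle had 3.01, 2.94 and 4.44 CPM, and at 3 h the MAPKi groups still overlapped. The log2 change over 3 and 5 h was 3.11 ± 0.36 in DMSO (8.64-fold, adjusted p = 1.44e-11) and 1.06 ± 0.34 in MAPKi (2.09-fold, adjusted p = 0.0109). The MAPKi call was lost without the libraries numbered 1 (adjusted p = 0.0528) or 3 (adjusted p = 0.0664).

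ARRDC2 moved less than these 3. In DMSO it stood at 13.02, 17.9 and 11.6 CPM at 5 h with cycloheximide and at 7.66, 3.27 and 5.64 CPM with vehicle, and its log2 change over 3 and 5 h was 1.13 ± 0.20 (2.19-fold, adjusted p = 2.61e-06). In MAPKi the change was 0.57 ± 0.19 (1.49-fold, adjusted p = 0.0137), and this call was lost when the libraries of any 1 number were left out (adjusted p from 0.0665 to 0.0794). ARRDC1 showed no detectable response, with log2 changes of -0.17 (adjusted p = 0.456) in DMSO and -0.20 (adjusted p = 0.341) in MAPKi. Its means over the 16 groups without triptolide ran from 7.86 to 15.1 CPM.

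**Figure D2:**
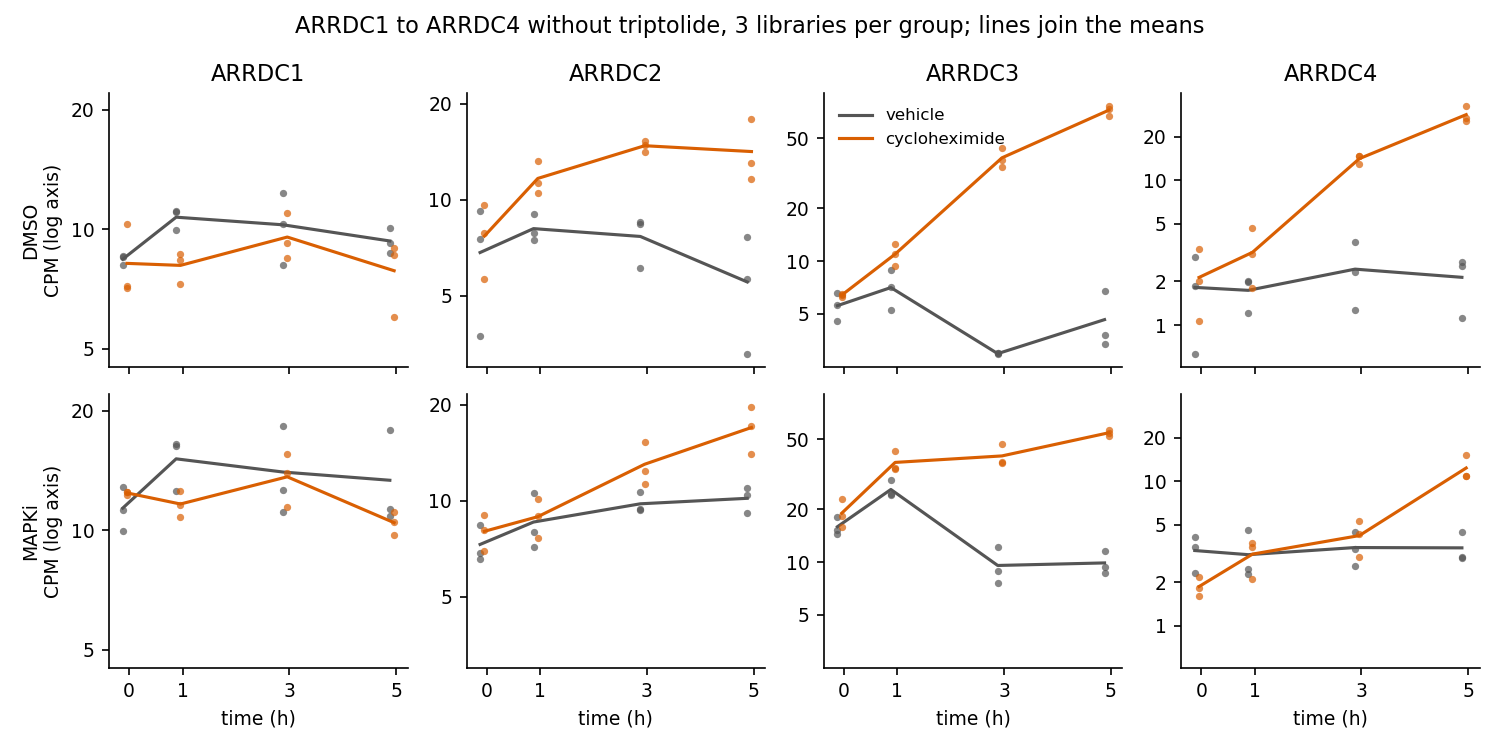
CPM (log axes, 1 scale per gene) of ARRDC1 to ARRDC4 with vehicle and with cycloheximide against time, DMSO above and MAPKi below. Points are libraries and lines join the means of 3; with cycloheximide in DMSO at 5 h, ARRDC3 stood at 15.6 times, ARRDC4 at 13.3 times and ARRDC2 at 2.56 times its vehicle mean.

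Over 3 and 5 h, 18.3% of genes were called higher with cycloheximide in DMSO and 15.9% in MAPKi, beside 4 of the 5 members in each. By size of the log2 change among the 14948 genes, TXNIP held rank 37, ARRDC3 rank 49 and ARRDC4 rank 95 in DMSO, and ranks 73, 117 and 704 in MAPKi. The median change of the 5 members was 3.11 in DMSO and 1.06 in MAPKi, and that of all genes was 0.01 and -0.01. The calls over all genes were 2733 higher and 2011 lower in DMSO and 2383 higher and 2082 lower in MAPKi. Scaling by stable genes in place of TMM gave 3721 and 861 in DMSO and 5425 and 333 in MAPKi and moved the medians to 0.14 and 0.28, and library totals gave 3193 and 1256 in MAPKi, but the same number of members was called in each.

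The response to cycloheximide was smaller after MAPKi for TXNIP, ARRDC3 and ARRDC4. The change in MAPKi minus that in DMSO was -1.56 ± 0.18 for TXNIP (adjusted p = 1.59e-10), -1.56 ± 0.23 for ARRDC3 (adjusted p = 3.19e-07) and -2.05 ± 0.49 for ARRDC4 (adjusted p = 0.00166), all on the log2 scale. The ARRDC4 difference was lost without the libraries numbered 1 (-1.69, adjusted p = 0.111). ARRDC2 had a difference of -0.56 (adjusted p = 0.190) and ARRDC1 one of -0.03 (adjusted p = 0.984). For comparison, 6.59% of genes were called lower in this difference, 985 as against 693 higher. With stable genes it was 419 lower and 1459 higher, and with library totals 490 and 1558, with 3 members still lower in both. For TXNIP the order of the pretreatments turned over within the cycloheximide arm. Its level in MAPKi was 2.86 times that in DMSO at 0 h and 1.79 times at 1 h, but 0.522 times at 3 h and 0.551 times at 5 h. At none of the 4 times did the libraries of the pretreatments overlap. With cycloheximide, ARRDC3 in MAPKi was at 1.04 times its DMSO level at 3 h, where the libraries overlapped, and at 0.753 times at 5 h. With vehicle these ratios were 3.22 and 2.13. For ARRDC4 they were 0.299 and 0.435 with cycloheximide and 1.43 and 1.62 with vehicle.

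**Figure D3:**
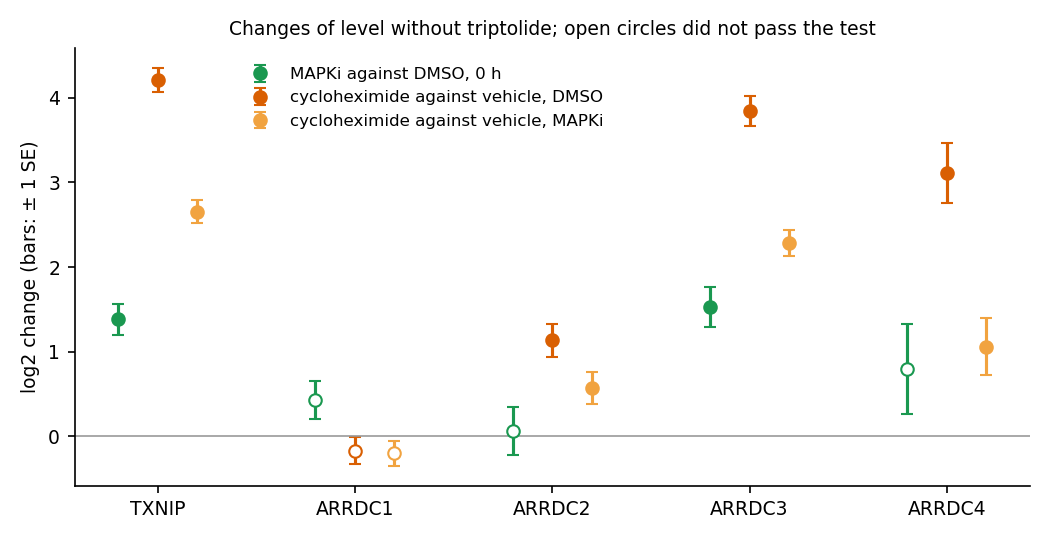
Log2 change ± 1 SE of the 5 members for MAPKi against DMSO at 0 h and for cycloheximide against vehicle over 3 and 5 h in each pretreatment; open circles did not pass the test. TXNIP reached 4.21 in DMSO and 2.66 in MAPKi, while ARRDC1 stayed at -0.17 and -0.20.

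The third comparison asked how fast the mRNAs disappear once transcription is blocked, using counts scaled by 36 stable genes, none of them a member. TXNIP, ARRDC3 and ARRDC2 fell in both pretreatments over 3 and 5 h, and ARRDC1 did not change detectably. Of the initial TXNIP level (the mean of vehicle at 0 h in the same pretreatment), the 3 DMSO libraries retained 7.82%, 9.07% and 3.72% at 3 h and 10.3%, 9.40% and 5.74% at 5 h. The MAPKi libraries retained 6.59%, 8.44% and 4.91% at 3 h and 5.69%, 9.19% and 6.99% at 5 h. The pretreatments overlapped at both times, and the mean at 5 h was no lower than that at 3 h in either. The log2 change over 3 and 5 h was -3.70 ± 0.18 in DMSO (adjusted p = 2.84e-31) and -3.83 ± 0.16 in MAPKi (adjusted p = 6.27e-35).

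ARRDC3 retained 11.2% ± 6.66 of its initial level at 3 h in DMSO and 4.58% ± 1.30 in MAPKi (SD, n = 3 each), from 4 to 8 counts per library in DMSO and 7 in each MAPKi library. Its log2 change was -3.22 ± 0.28 in DMSO (adjusted p = 8.21e-17) and -4.09 ± 0.23 in MAPKi (adjusted p = 3.24e-27). ARRDC2 kept more, 27.0% ± 13.3 and 26.4% ± 13.03 at 3 h, with log2 changes of -1.96 ± 0.26 (adjusted p = 7.22e-10) and -1.81 ± 0.26 (adjusted p = 3.21e-09). ARRDC4 had log2 changes of -1.20 ± 0.51 in DMSO (adjusted p = 0.0447) and -1.58 ± 0.46 in MAPKi (adjusted p = 0.00228). The DMSO call of ARRDC4 was lost under 7 of 12 alternatives, among them leaving out the libraries numbered 3 (-0.55, adjusted p = 0.540), and the MAPKi call under TMM scaling (-0.93, adjusted p = 0.0999). ARRDC1 was at 105% ± 25.7 of its initial level in DMSO and 92.6% ± 10.6 in MAPKi at 3 h. At 5 h it was at 110% ± 14.5 and 67.7% ± 10.6, with all 3 MAPKi libraries below those of vehicle at 0 h. Over both times its log2 changes were 0.12 (adjusted p = 0.646) and -0.34 (adjusted p = 0.114). The ARRDC1 value moved with the scaling, to 0.59 in DMSO (adjusted p = 0.0131) and 0.31 in MAPKi under TMM, and to -0.52 in MAPKi (adjusted p = 0.0458) under mitochondrial rRNA scaling.

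Among all genes, 48.7% in DMSO and 56.1% in MAPKi were called lower over 3 and 5 h, beside 4 of 5 members in each. The median log2 change was -0.47 and -0.59 over all genes, and -1.96 and -1.81 over the 5 members. With TMM scaling the medians over all genes became 0 and 0.05, and the calls went from 195 higher and 7273 lower to 1863 and 3091 in DMSO, and from 191 and 8385 to 2927 and 3088 in MAPKi. Library totals gave 651 and 3951 in DMSO and 674 and 4637 in MAPKi. TXNIP, ARRDC2 and ARRDC3 were called lower in both pretreatments under each of these. No member was called for the difference between the pretreatments (3.17% of genes were), and the differences ran from -0.87 for ARRDC3 (adjusted p = 0.322) to 0.14 for ARRDC2 (adjusted p = 0.957).

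At 1 h, 0.823% of genes were called lower in DMSO and 1.57% in MAPKi. TXNIP was at 61.7%, 70.0% and 31.5% of its initial level in the DMSO libraries and at 18.9%, 35.0% and 38.6% in the MAPKi libraries. Its log2 change was -0.86 ± 0.19 in DMSO (adjusted p = 0.00709), which was lost with mitochondrial rRNA scaling (adjusted p = 0.178) and without the libraries numbered 3 (-0.62, adjusted p = 0.111). In MAPKi it was -1.70 ± 0.19 (adjusted p = 2.33e-10), but -0.79 when set against vehicle at 1 h, whose own TXNIP level was 52.9% of the initial one. ARRDC3 fell by 1.24 ± 0.24 on the log2 scale in MAPKi (adjusted p = 4.76e-04), a call lost without the libraries numbered 1 (-1.03, adjusted p = 0.109). The difference between the pretreatments at 1 h was called for no member, with 0.0134% of genes called (TXNIP -0.84, adjusted p = 0.949). Without the libraries numbered 3, that of TXNIP was -1.30 (adjusted p = 0.0269).

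The fourth comparison asked how much of this loss depends on translation, by adding cycloheximide to triptolide. TXNIP was retained at 4.92-fold higher levels with both inhibitors than with triptolide alone in DMSO and at 4.73-fold higher levels in MAPKi. In DMSO, the libraries with both inhibitors kept 49.9%, 51.2% and 42.6% of the initial TXNIP level at 3 h and 29.3%, 32.7% and 27.8% at 5 h. In MAPKi they kept 34.2%, 43.4% and 42.6% at 3 h and 23.2%, 28.9% and 31.7% at 5 h. None of these libraries overlapped with triptolide alone. The log2 difference over 3 and 5 h was 2.30 ± 0.16 in DMSO (adjusted p = 6.32e-21) and 2.24 ± 0.14 in MAPKi (adjusted p = 1.16e-23). TXNIP still fell with both inhibitors present, with log2 changes from the initial level of -1.41 ± 0.16 in DMSO and -1.58 ± 0.15 in MAPKi.

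ARRDC2 was 3.05-fold higher with both inhibitors than with triptolide in DMSO (log2 difference 1.61 ± 0.22, adjusted p = 5.73e-09) and 3.15-fold higher in MAPKi (1.66 ± 0.22, adjusted p = 4.73e-10). Its change from the initial level with both inhibitors did not pass the test in either pretreatment (log2 -0.35, adjusted p = 0.333, and -0.16, adjusted p = 0.710). ARRDC3 was 2.17-fold higher in DMSO (1.12 ± 0.31, adjusted p = 0.00273) and 5.28-fold higher in MAPKi (2.4 ± 0.23, adjusted p = 2.12e-15). The difference between those effects was 1.28 ± 0.40 (adjusted p = 0.0349), in a comparison where 6.82% of genes were called higher. Its size stayed between 1.12 and 1.45 under the 10 alternatives, but the call was lost under 7 of them, leaving out the libraries of any 1 number included (adjusted p from 0.0583 to 0.251). The call of the DMSO effect was lost without the libraries numbered 2 (0.90, adjusted p = 0.0531). At 5 h in DMSO, ARRDC3 libraries with both inhibitors held only 11, 3 and 6 counts. With both inhibitors ARRDC3 still fell from its initial level, by 2.10 ± 0.26 in DMSO and by 1.69 ± 0.20 in MAPKi on the log2 scale.

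ARRDC4 had a log2 difference of 1.07 ± 0.42 between both inhibitors and triptolide in DMSO (2.10-fold, adjusted p = 0.0480), a call lost under 5 of 10 alternatives, and of 0.01 (adjusted p = 1.00) in MAPKi. In 1 MAPKi library with both inhibitors at 3 h it had 0 counts. In MAPKi it fell with both inhibitors (-1.57 ± 0.47, adjusted p = 0.0110), a call lost without the libraries numbered 1 (adjusted p = 0.111) or 2 (adjusted p = 0.0569). ARRDC1 had log2 differences of 0.01 (adjusted p = 0.979) and 0.32 (adjusted p = 0.0826) between both inhibitors and triptolide. Over all genes, 28.4% in DMSO and 41.4% in MAPKi were called higher with both inhibitors than with triptolide, beside 4 and 3 members. The medians over all genes were 0.23 and 0.34, as against 1.12 and 1.66 over the members. TMM scaling moved the all-gene medians to -0.0033 and -0.05, and the calls from 4247 higher and 70 lower to 2238 and 1044 in DMSO, and from 6194 and 80 to 2825 and 2261 in MAPKi, where library totals gave 3785 and 754. TXNIP, ARRDC2 and ARRDC3 kept their calls under both. Against the initial level, 22.2% of genes in DMSO and 18.3% in MAPKi were called lower with both inhibitors, beside 2 and 3 members.

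**Figure D4:**
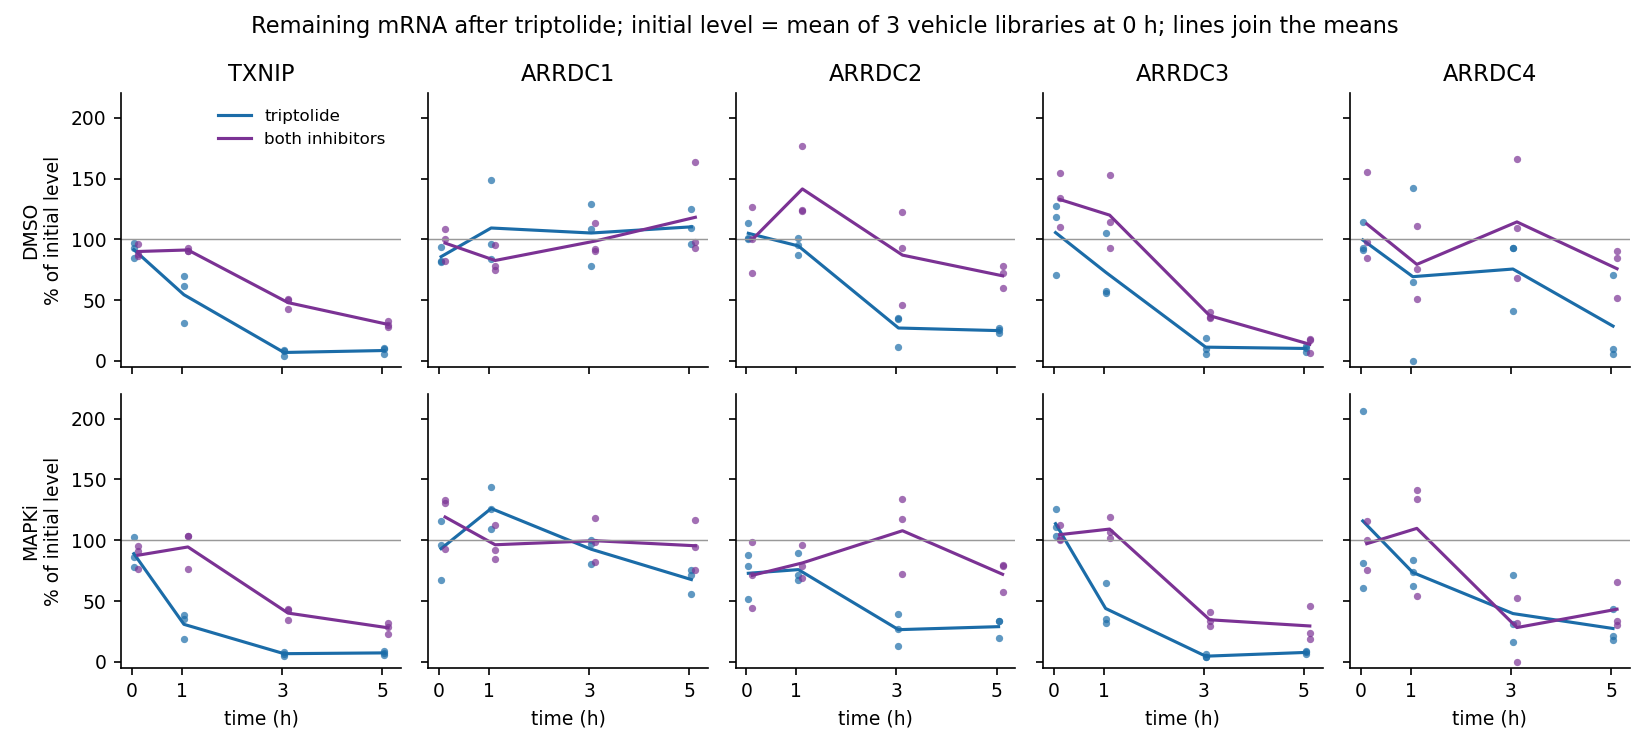
Percent of the initial level (mean of 3 vehicle libraries at 0 h) that remained with triptolide and with both inhibitors against time, for the 5 members, DMSO above and MAPKi below. Points are libraries and lines join the means of 3. At 3 h TXNIP stood at 6.87% with triptolide and 47.9% with both inhibitors in DMSO. The ARRDC1 means lay between 67.7% (triptolide in MAPKi at 5 h) and 126% (triptolide in MAPKi at 1 h) over all times.

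The study expresses this as an index of translation-dependent decay (TDD index), the normalized count with both inhibitors minus that with triptolide, divided by the initial count, so it draws on the same libraries as the fold differences above. For TXNIP the index over 3 and 5 h was 0.316 ± 0.0375 in DMSO and 0.270 ± 0.0440 in MAPKi (SD over 3 replicates). At 3 h it stood at 0.416 in DMSO and 0.335 in MAPKi, and at 5 h at 0.215 and 0.206. The difference between the pretreatments was -0.0451 (adjusted p = 0.564, linear model per gene). The replicates overlapped, with 0.292 to 0.359 in DMSO and 0.222 to 0.308 in MAPKi.

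The median index over all genes was 0.122 ± 0.0343 in DMSO and 0.183 ± 0.0115 in MAPKi. ARRDC2 had 0.517 ± 0.204 and 0.647 ± 0.268, ARRDC3 0.151 ± 0.0418 and 0.260 ± 0.0539, and ARRDC1 -0.00352 ± 0.337 and 0.162 ± 0.139. ARRDC4 had 0.498 ± 0.169 in DMSO and 0.0151 ± 0.231 in MAPKi. Its replicates did not overlap between the pretreatments, but the difference of -0.483 did not pass the correction (adjusted p = 0.263). The study called changes of the index at an unadjusted p of 0.05 or less. In the linear model used here, ARRDC4 had an unadjusted p of 0.0297, and 1758 of 11422 genes met that threshold. The ARRDC4 difference was -0.0789 with times 1, 3 and 5 h and -0.306 without the libraries numbered 2. No member was called in the model, where 0.0963% of genes (11 of 11422) were called, and the adjusted p of the other members ran from 0.428 for ARRDC3 to 0.805 for ARRDC2.

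**Figure D5:**
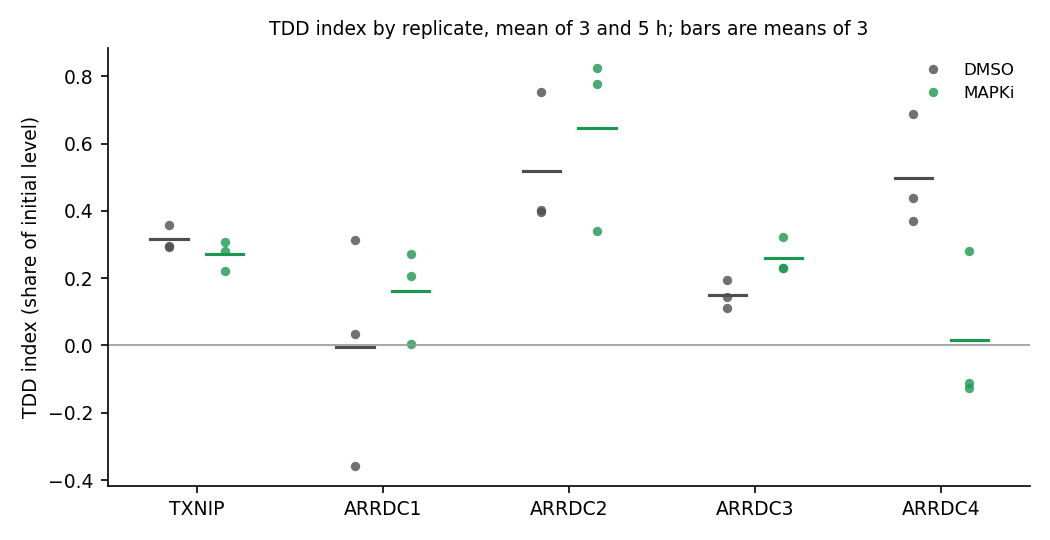
TDD index (share of the initial level, mean of 3 and 5 h) of the 5 members; points are replicates and bars the means of 3, in DMSO and MAPKi. TXNIP lay between 0.222 and 0.359 in all 6 replicates, and ARRDC1 ranged from -0.358 to 0.312.

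Genes that work with the alpha-arrestins were described from 7 lists. Of the Mondo-MLX factors, MLXIP was higher in MAPKi at 0 h (log2 change 0.62 ± 0.13) and MLX was lower (-0.68 ± 0.11), while MLXIPL had at most 4 counts in a library and was not tested. With cycloheximide over 3 and 5 h, MLXIP fell in DMSO (-0.79 ± 0.09) and had a change of -0.19 in MAPKi, which did not pass the test. The difference between these was 0.60 ± 0.13 and passed. MLX was not called with cycloheximide in either pretreatment. TXNIP and ARRDC4 mRNA rose in both pretreatments, while MLXIP mRNA was called lower in DMSO alone. A link between these changes was not tested.

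Of 5 other glucose-responsive targets tested, FASN, a fatty acid synthesis enzyme (-1.26 ± 0.13), GPD1 (-3.61 ± 1.36, at most 24 counts in a library) and the transcriptional repressor KLF10 (-1.38 ± 0.41) were lower in MAPKi at 0 h, and none was higher. Their median was -1.26, as compared to 0.03 over all genes, of which 3586 of 14948 were called lower. With cycloheximide in DMSO, KLF10 (3.66 ± 0.24) and the G-protein regulator RGS16 (1.00 ± 0.23) rose, where 18.3% of all genes were called higher. KLF10 rose in MAPKi as well (3.38 ± 0.24), where FASN fell (-0.45 ± 0.09). There 15.9% of all genes were called higher, and 2082 genes lower.

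Of 11 genes of the thioredoxin system, which TXNIP inhibits at the protein level, 4 were higher and 4 lower in MAPKi at 0 h, where 21.9% of all genes were called higher and 24.0% lower. Thioredoxin reductase TXNRD1 fell by 1.17 ± 0.17 and sulfiredoxin SRXN1 by 1.18 ± 0.26 on the log2 scale, while TXNRD2 rose by 0.85 ± 0.22 and PRDX2 by 0.64 ± 0.18. With cycloheximide in DMSO, 6 of the 11 were lower, among them TXNRD1 (-0.98 ± 0.12), and none was higher, with a median of -0.26 as compared to 0.01 over all genes, of which 13.5% were called lower. In MAPKi, 5 were lower and 1 higher, beside 13.9% and 15.9% of all genes.

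Of 9 NEDD4-family ligases, 5 rose and 1 fell with cycloheximide in DMSO, where 18.3% of all genes were called higher and 13.5% lower. WWP2 rose by 1.92 ± 0.11, NEDD4L by 0.83 ± 0.08, NEDD4 by 0.80 ± 0.09 and SMURF1 by 0.64 ± 0.13. In MAPKi only WWP2 rose (1.64 ± 0.11) and WWP1 fell (-0.42 ± 0.09). The response was called smaller in MAPKi for NEDD4L (-0.85 ± 0.12), NEDD4 (-0.78 ± 0.13) and SMURF2 (-0.61 ± 0.18). At 0 h, HECW1 was higher (2.23 ± 0.57) and NEDD4L lower (-0.77 ± 0.12) in MAPKi.

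Among 10 partners and cargo proteins tested, the glucose transporters SLC2A3 (-2.02 ± 0.19) and SLC2A1 (-0.83 ± 0.18), the latter encoding GLUT1, were lower in MAPKi at 0 h, whereas DDIT4, whose protein forms a complex with TXNIP and restrains mTORC1, was higher (0.79 ± 0.19). With cycloheximide in DMSO, DDIT4 (1.80 ± 0.14), SLC2A3 (1.41 ± 0.12) and SLC2A1 (0.65 ± 0.13) rose, where 18.3% of all genes were called higher. The response of SLC2A3 (-1.17 ± 0.19) and DDIT4 (-0.79 ± 0.19) was smaller in MAPKi, a difference called lower for 6.59% of all genes. The ARRDC1 partner VPS4A was lower in MAPKi at 0 h (-0.47 ± 0.12). Of all 14948 genes, 21.9% were called higher and 3586 lower at 0 h.

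FOXO factors, known as activators of TXNIP, and their targets held 9 of 12 genes higher in MAPKi at 0 h and 1 lower, beside 21.9% and 24.0% of all genes. The median log2 change was 1.07, as compared to 0.03 over all genes. The sestrin SESN3 rose by 3.54 ± 0.14, the ubiquitin ligase TRIM63 by 2.70 ± 0.26, the PI3K inhibitor PIK3IP1 by 2.39 ± 0.80 and the cyclin CCNG2 by 1.98 ± 0.53, while GADD45A fell by 0.87 ± 0.16. PIK3IP1 had at most 87 counts in a library and counts in 72 of the 96 libraries, and CCNG2 had at most 102 counts. With cycloheximide, 6 of the 12 rose in DMSO and 5 in MAPKi, beside 18.3% and 15.9% of all genes. Lower calls went to 1 of the 12 in DMSO and to 3 in MAPKi, where 2011 and 2082 genes in all had such a call. The list's median log2 changes were 0.63 and 0.28. PIK3IP1 rose by 3.62 ± 0.98 and 1.40 ± 0.45, GADD45A by 1.64 ± 0.11 and 2.30 ± 0.11, and the repressor BCL6 by 1.56 ± 0.10 and 1.18 ± 0.10. Of 5 arrestin relatives tested, beta-arrestins and VPS26 subunits of retromer among them, none was called in MAPKi at 0 h. With cycloheximide VPS26B fell in DMSO (-0.40 ± 0.08) and in MAPKi (-0.26 ± 0.08), the latter by less than the shift that stable-gene scaling gives, and none rose.

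Differences between the lists in their loss after triptolide were not tested. Over 3 and 5 h in DMSO, 8 of 12 FOXO genes were lower with a median of -1.58, 7 of 9 ligases with a median of -0.52, 6 of 10 partners with a median of -0.38 and 6 of 11 thioredoxin genes with a median of -0.21, beside 48.7% of all genes lower and a median of -0.47. In MAPKi these counts were 11, 7, 7 and 2, beside 56.1% of all genes. Of the 5 other glucose-responsive targets, 4 were lower in DMSO with a median of -2.26, and 2 in MAPKi with a median of -0.95. Several of these shares lie near that of all genes. In DMSO, the medians of the partners and of the thioredoxin genes lie nearer to 0 than the shift that TMM scaling gives. Their direction there depends on the scaling. In MAPKi this holds for the thioredoxin genes (median -0.16), while the median of the partners was -0.75. DDIT4 fell by 5.18 ± 0.22 and RGS16 by 6.35 ± 0.43 in DMSO. Both inhibitors left DDIT4 higher by 2.25 ± 0.24 and RGS16 higher by 4.52 ± 0.45 on the log2 scale than triptolide alone.

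Over the 32 groups, the highest and lowest mean normalized counts differed 736-fold for TXNIP, 144-fold for ARRDC3, 62.3-fold for ARRDC4, 13.6-fold for ARRDC2 and 2.21-fold for ARRDC1. TXNIP was highest with cycloheximide in DMSO at 5 h (32634 ± 5409), then in MAPKi at 5 h (21408 ± 1278), in DMSO at 3 h (18234 ± 748), in MAPKi at 3 h (10257 ± 895) and in MAPKi at 1 h (3139 ± 374). Each of these 5 groups was separate from the next lower one. Over the whole order, 22 of the 31 neighbouring pairs of TXNIP groups overlapped. These included every pair from MAPKi with vehicle at 5 h down to DMSO with vehicle at 1 h. The lowest were the 4 groups with triptolide alone at 3 and 5 h, MAPKi above DMSO. ARRDC3 had 23 of 31 neighbours overlapping, ARRDC2 and ARRDC4 29 each, and ARRDC1 all 31.

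Across the 32 group means of log2 normalized counts, Pearson's r with TXNIP was 0.931 for ARRDC3, 0.893 for ARRDC2, 0.882 for ARRDC4 and 0.403 for ARRDC1. The r of ARRDC1 with the other 4 ran from 0.285 to 0.451, and with library totals in place of stable genes its r with TXNIP was 0.0559. The groups share pretreatments, arms and their scaling, so these values describe the libraries only. Among 10986 genes, those with the course most like TXNIP were the zinc finger genes PRDM2 (r = 0.961) and ZBTB5 (r = 0.960) and the chromatin remodeller CHD2 (r = 0.959). ARRDC3 was nearest to ID1 (r = 0.963), an inhibitor of basic helix-loop-helix factors, followed by PNISR and BCL6. ARRDC2 was nearest to CSRNP1 (r = 0.962), followed by PRKAB1 and EPC1, and ARRDC4 to the noncoding RNA genes CCDC144NL-AS1 (r = 0.920) and EPB41L4A-AS1, followed by EIF4A2. ARRDC1 had no gene above r = 0.863, the value of HRCT1, and SLC25A42 and DMAC2L came next.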

How the data were processed

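QuantSeq 3′ libraries of cytoplasmic RNA from A375 cells were deposited as 1 table of raw read counts. Per the labels and methods, the authors trimmed reads with fastp (0.20.1), aligned forward reads to GRCh38.p13 with HISAT2 (2.2.1) and made the counts over exons with HTSeq (0.13.5), without molecular identifiers; the strand setting is not given in the sources used here. Groups came from the labels, which do not say that replicates were separate cultures, so p-values measure the spread between these samples. The 5 members and the gene lists were chosen with earlier results of these data known, and in each comparison up to 4 called genes of a list are named, those with the largest absolute log2 change, with both tested Mondo-MLX factors and the 3 genes closest in pattern to each member. The result of 1 gene of the partner list is not reported here.

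Genes were filtered with filterByExpr. Differences were tested with edgeR (4.0.16, R 4.3.3) quasi-likelihood fits with 1 mean for each of the 32 groups over all 96 libraries, and p-values were adjusted after Benjamini and Hochberg over 14948 genes, with a threshold of 0.05. Contrasts without triptolide used TMM factors, which also scale the CPM. Those with triptolide, and all normalized counts, used DESeq2 (1.42.0) size factors of 36 stable genes, with CPM above 0.2 at first, at least 1.1 times higher at 3 and 5 h of triptolide and an initial level over 10% of the later one. TDD indices of genes with at least 10 normalized counts at 0 h entered a linear model on pretreatment, time and replicate. Patterns used genes with at least 20 normalized counts. Alternatives were DESeq2, other scalings, no filter, a replicate block, other initial samples, limma (3.58.1) and leaving out each replicate. Simulated counts with known changes were used to check the fits. Total counts of 2381351 to 12520154 limit the precision of members with few counts.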

Additional observations from a re-analysis of the deposited data

Results flagged for a closer look

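The response to cycloheximide over 3 and 5 h differed between MAPKi and DMSO by an interaction term (edgeR, adjusted over all genes tested) for TXNIP, by -1.56 on the log2 scale, for ARRDC3, by -1.56, and for ARRDC4, by -2.05. Under the alternatives the TXNIP difference ran from -1.71 to -1.39, the ARRDC3 difference from -1.74 to -1.39 and the ARRDC4 difference from -2.43 to -1.69. The effect of adding cycloheximide to triptolide differed between the pretreatments for ARRDC3, by 1.28. The size ran from 1.12 to 1.45 under the alternatives, and the call was lost under 7 of 10.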

How the results depend on the processing

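Of 40 called member results, 28 kept their call under every alternative run, 12 lost it under at least 1 and none reversed. The number of members called at 0 h in MAPKi went from 2 to 5 when averaged over the vehicle times, while that of all genes went from 6865 to 10311. In the vehicle arm, DESeq2 called 1 member in MAPKi where edgeR called 0, and no filter on low counts gave 1 for the interaction (0 before). With cycloheximide at 1 h, leaving out replicates gave 0 to 1 members in DMSO (1 with all), and no filter gave 1 for the interaction (0 before). Over 3 and 5 h in MAPKi, leaving out replicates gave 2 to 3 (4 with all). With triptolide at 1 h in DMSO, mitochondrial rRNA scaling gave 0 members and leaving out replicates 0 to 1 (1 with all), in MAPKi leaving out replicates gave 1 to 2 (2 with all), and for the interaction no filter gave 1 and leaving out replicates 0 to 1 (0 with all). Over 3 and 5 h of triptolide, mitochondrial rRNA scaling gave 1 for the interaction (0 before). For both inhibitors against triptolide, the interaction of 1 member went to 0 under TMM scaling, library totals, no filter, stable genes at 3 or 5 h and each left-out replicate (0 to 0). The difference in TDD index changed sign for TXNIP, to 0.0591 with times 1, 3 and 5 h, and for ARRDC2, to -0.0518. Leaving out replicates gave -0.0659 to 0.00598 for TXNIP and -0.00969 to 0.232 for ARRDC2, with the change of sign without replicate 1 in both. These were not called in any setting, and the causes were not tested.

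The replicate block was checked as follows. Deviations of same-numbered samples correlated above 0.1 in 360 of 1488 pairs, with a median r of 0.0227, so the numbers were not taken to pair the samples in the edgeR fits. The TDD index, following the study's methods, did combine libraries of the same number, and its model held a replicate term. As a hint from the data, 64 of 96 libraries lay closest to their own number, and the labels give the libraries of a number a common prefix without saying what it marks. The block changed no count of members called; over all genes it moved calls with cycloheximide at 1 h in MAPKi from 11 to 19. The TDD model without a replicate block called 31 genes in place of 11, and 0 members in both. Low counts limit ARRDC3 after triptolide and ARRDC4 throughout.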
